A study of Homo sapiens with 8 samples.

Results

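The deoxynucleotide synthesis enzymes examined here are 9 genes whose products make, salvage or clear the precursors of DNA. They were taken by symbol from the deposited expression table, in which each of RRM1, RRM2, RRM2B, TYMS, DUT, DTYMK, TK1, TYMP and CTPS1 has a single row, and they are 9 of 60664 gene rows. All 9 were among the 14899 genes that reached 1 FPKM (fragments per kilobase of exon, scaled to library size) in at least 2 of the 8 libraries and were therefore tested. RNA was sequenced from THP-1 cells, a human acute monocytic leukemia line, in 4 groups of 2 biological replicates. Parental cells and DAC-resistant cells, a derivative selected by repeated long-term exposure to decitabine (DAC) and then kept without drug, each received DMSO vehicle or 1 µM DAC for 6 days. All 4 groups carry the label WT for genotype, and whether the DAC-resistant line is a single clone is not stated in the sources used here.

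Ribonucleotide reductase converts ribonucleotides into deoxyribonucleotides and joins the large catalytic subunit RRM1 with a small subunit, which is RRM2 in S phase or RRM2B, a damage-induced subunit also used outside S phase. Thymidylate is formed from dUMP by TYMS with a folate cofactor, DUT supplies that dUMP by splitting dUTP, and DTYMK phosphorylates the product. TK1 returns thymidine to the pool, TYMP breaks thymidine down to thymine, and CTPS1 turns UTP into CTP. DAC itself is a deoxycytidine analogue that enters the same network: DCK phosphorylates it, CDA and DCTD deaminate it or its monophosphate, and in DNA it traps DNA methyltransferases.

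The libraries held 28630252 to 33331941 reads recovered in genes, and single enzymes were backed by 454 reads (TYMP, a parental DMSO library) to 9059 reads (CTPS1, another parental DMSO library). Defining markers of the monocytic leukemia line were present, with 12 of 15 at or above 1 FPKM in all libraries and all 15 in at least 1. Their summed level was 665 to 679 FPKM in parental DMSO, 823 to 836 FPKM in parental DAC, 486 to 507 FPKM in DAC-resistant DMSO and 507 to 516 FPKM in DAC-resistant DAC cells. T-cell markers summed to at most 0.824 FPKM and erythroid markers to at most 3.08 FPKM in any library, B- and plasma-cell markers to 7.63 to 14.4 FPKM, and epithelial and stromal markers to 18.3 to 64.4 FPKM, the last carried mainly by PECAM1, which leukocytes also express. In bulk RNA, fewer cells of a type and less RNA per cell cannot be told apart. The labels call the 2 libraries of a group biological replicates, and whether they were separate cultures is not stated, so p-values measure the spread between these libraries.

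Levels and changes are given on separate scales. A level is in FPKM, as mean ± SD of n = 2 libraries, and a fold is the ratio of 2 group means. A change is a log2 fold change of FPKM + 1 with its standard error (SE), from limma fitted to all genes and all 8 libraries, with Benjamini-Hochberg adjusted p over 14899 genes, and a gene passed at an adjusted p under 0.05. Between 11.2% and 67.0% of all genes passed, depending on the comparison, and each count of enzymes is set beside that share.

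Of the 9 enzymes, 8 had promoter windows in RefSeq (GRCh38.p14, 250 bases before a transcript start, 15 windows for the 8 genes), and stretches of 2 are printed here: that of TYMP, the member with the largest rise under DAC in parental cells, and that of TYMS, the member that was lower by the most between the lines in DMSO. Both are shown 5′ to 3′ on the gene's strand and lie outside annotated exons, TYMP on the minus strand at chr22:50530033-50530262 and TYMS on the plus strand at chr18:657403-657652. Capitals mark the letters ATTGG, the reverse complement of the CCAAT box, in TYMP, and GCGGGAAA, a spelling bound by E2F factors of the G1/S program, in TYMS.
TYMP: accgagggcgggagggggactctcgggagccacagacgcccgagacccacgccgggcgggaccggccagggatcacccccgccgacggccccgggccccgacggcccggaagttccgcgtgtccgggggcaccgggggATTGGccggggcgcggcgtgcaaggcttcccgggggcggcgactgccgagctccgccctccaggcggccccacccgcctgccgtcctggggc
TYMS: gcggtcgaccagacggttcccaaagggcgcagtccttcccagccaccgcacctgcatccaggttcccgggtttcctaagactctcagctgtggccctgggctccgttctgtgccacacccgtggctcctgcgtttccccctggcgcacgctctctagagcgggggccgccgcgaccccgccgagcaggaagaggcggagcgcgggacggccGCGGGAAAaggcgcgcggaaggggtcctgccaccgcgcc
The E2F-type letters searched on both strands were TTTGGCGC, TTTCCCGC, TTTCGCGC and TTTGCCGC, which 2.79% of 35116 RefSeq windows of this length contain. Among the windows of the enzymes they were found at the TYMS start, 39 bases before it, and in a window of a downstream DUT start, 42 and 27 bases before it. CCAAT on either strand, present in 32% of all windows, was found at the nearest start of 5 of the 8 enzymes, with 3 copies at RRM2 (123, 93 and 66 bases before the start), 2 each at TK1 and DTYMK and 1 each at RRM1 and TYMP. The GC box GGGCGG, present in 42.6% of all windows, was found in 11 of the 15 windows. It was at the nearest start of 6 of the 8 enzymes, with 5 copies at TYMP and 4 at CTPS1. The TYMP window also held 38 CpG dinucleotides, more than 96.7% of all windows, against a median of 11. The letters searched for the interferon-stimulated response element, found in 3.02% of all windows, were in none of the 15 windows. A match describes the letters only.

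The 9 enzymes were unequal in level before any treatment. By FPKM, TK1 stood highest in parental DMSO cells at 64.0 ± 1.17 FPKM, above 96.8% of the genes tested. DUT at 35.7 ± 0.433, TYMS at 35.5 ± 0.0672 and RRM1 at 33.3 ± 0.876 FPKM followed, and the libraries of DUT and TYMS overlapped. CTPS1 was at 26.0 ± 0.548, DTYMK at 12.8 ± 0.701, RRM2B at 11.8 ± 0.157, RRM2 at 6.79 ± 0.186 and TYMP at 4.10 ± 0.0854 FPKM. The order depends on the length behind FPKM, which for 8 enzymes was that of all annotated exons and for CTPS1 11164 bases as solved from its values. RRM2 had 9153 bases against 3258 in its MANE Select transcript, and CTPS1 11164 against 2840. Rescaled to MANE Select lengths, a divisor chosen after the values were seen, CTPS1 stood highest at 102.1 ± 2.16, then TK1 at 82.6 ± 1.51, DUT at 61.2, TYMS at 53.2, RRM1 at 44.9, DTYMK at 29.3, RRM2 at 19.1, RRM2B at 13.3 and TYMP at 9.30. Folds between groups do not depend on it. Across the 4 groups the highest mean exceeded the lowest by 12.1-fold for TYMP, 2.30-fold for TYMS, 2.18-fold for RRM2 and 1.27-fold for DTYMK, with the other 5 between 1.52-fold (RRM1) and 1.83-fold (CTPS1).

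**Figure D1:**
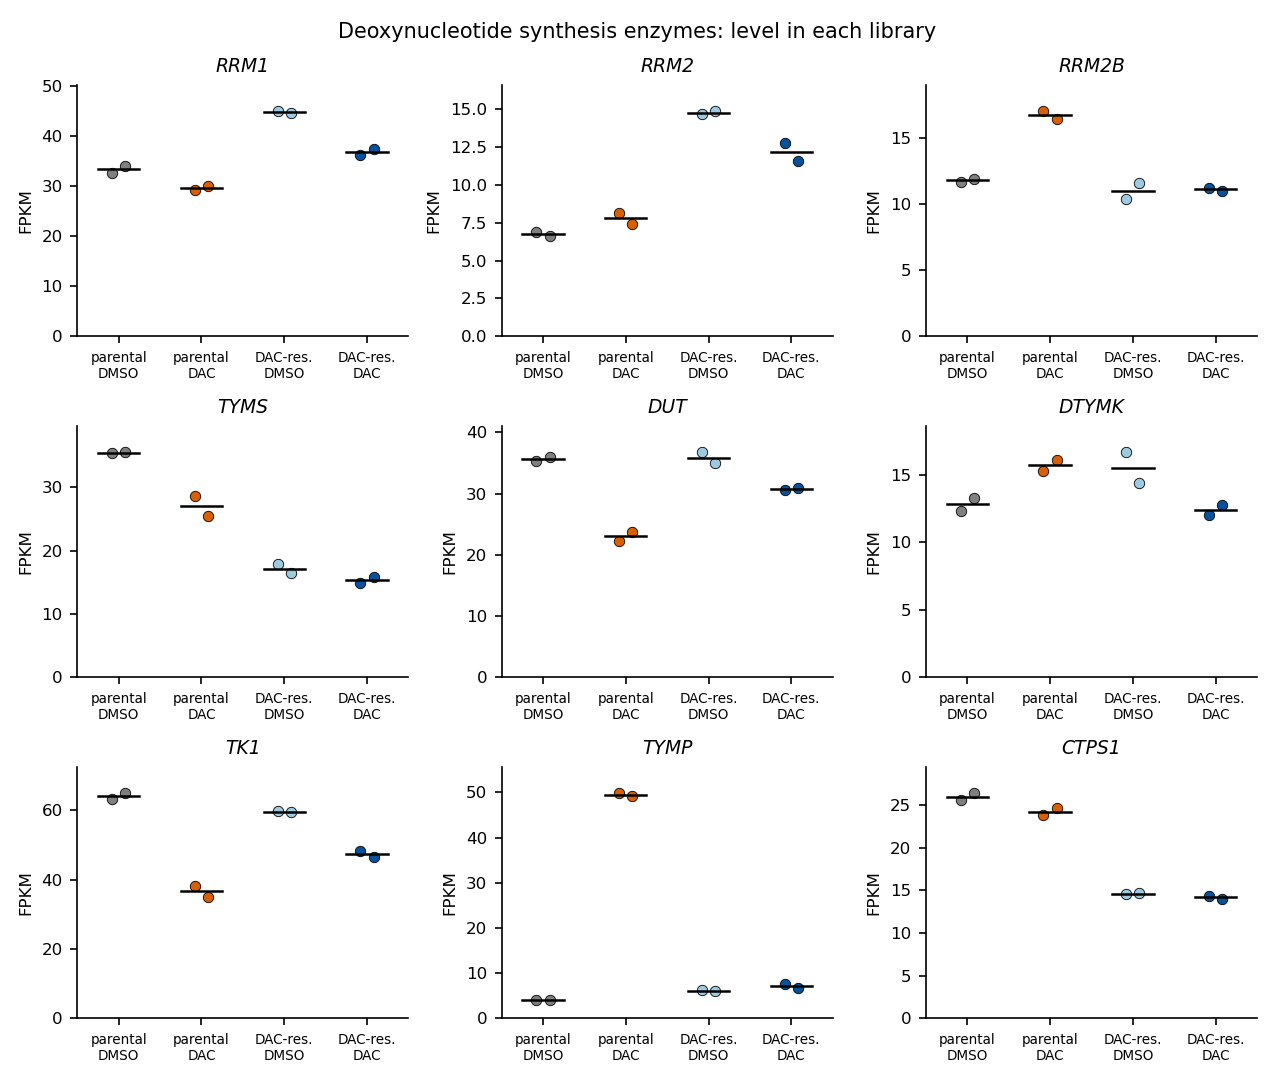
Level of each enzyme in FPKM (linear axis from 0) in the 8 libraries, grouped by cell line and treatment. Points are libraries and bars are means of 2. TYMP stood at 49.2 and 49.8 FPKM in parental DAC cells and at or below 7.56 FPKM elsewhere, TYMS and CTPS1 separated the lines, and TK1 and DUT were lowest in parental DAC cells.

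The first comparison asked what 6 days of DAC did to these transcripts in parental cells. All 9 passed, 4 higher and 5 lower, where 57.7% of all genes tested passed (33.6% higher and 24.1% lower). TYMP rose 12.1-fold, RRM2B rose by 41.7%, and DTYMK and RRM2 rose by less, while TK1, DUT and TYMS fell, with smaller falls of RRM1 and CTPS1. By a stricter rule, unadjusted p no higher than 0.01 together with a change of at least 1 on the log2 scale of FPKM + 1 (called the 2-fold rule), TYMP was the only member called, where 9.31% of all genes were called (6.66% higher and 2.64% lower).

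TYMP, which cleaves thymidine to thymine and deoxyribose 1-phosphate, was at 4.04 and 4.16 FPKM in the parental DMSO libraries and at 49.8 and 49.2 FPKM in the parental DAC libraries. The groups were far apart, and the log2 fold change was 3.31 (SE 0.0604, adjusted p = 1.56e-07). RRM2B was at 11.7 and 11.9 FPKM under DMSO and at 17.0 and 16.4 FPKM under DAC, with no overlap and a log2 fold change of 0.47 (SE 0.0541, adjusted p = 0.000414). DTYMK, the kinase after TYMS, was at 12.3 and 13.3 FPKM under DMSO and 15.3 and 16.1 FPKM under DAC, a log2 fold change of 0.27 (SE 0.0750, adjusted p = 0.0188). RRM2 rose least, from 6.92 and 6.65 to 8.13 and 7.43 FPKM, a log2 fold change of 0.17 (SE 0.0602, adjusted p = 0.0455).

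TK1, the salvage kinase, was at 63.2 and 64.9 FPKM under DMSO and fell to 38.2 and 35.0 FPKM, a change of −42.8% (log2 fold change −0.79, SE 0.0437, adjusted p = 1.54e-05). DUT, the dUTPase, was at 35.3 and 36.0 FPKM and fell to 22.3 and 23.8 FPKM, a change of −35.4% (log2 fold change −0.61, SE 0.0390, adjusted p = 2.94e-05). Both genes had DAC libraries well below the DMSO libraries. TYMS was at 35.4 and 35.5 FPKM and fell to 28.6 and 25.4 FPKM (log2 fold change −0.38, SE 0.0652, adjusted p = 0.00255). The large reductase subunit RRM1 fell from 32.7 and 33.9 to 29.1 and 29.9 FPKM (log2 fold change −0.17, SE 0.0319, adjusted p = 0.00401). CTPS1 fell from 25.6 and 26.4 to 23.8 and 24.6 FPKM (log2 fold change −0.10, SE 0.0335, adjusted p = 0.0426). The calls of RRM2, CTPS1 and DTYMK were the least firm: leaving out single libraries ended them in 5, 7 and 3 of 8 cases, with log2 fold changes of 0.12 to 0.23, −0.12 to −0.07 and 0.22 to 0.33. The RRM2 call was lost without either DMSO library of either line or parental DAC replicate 1, the CTPS1 call without any library but parental DAC replicate 2, and the DTYMK call without parental DMSO replicate 1 or either parental DAC library. Over all 20 alternatives, the 2-fold rule included, the call changed in 13 for RRM2 (log2 fold change 0.07 to 0.23), 11 for CTPS1 (−0.21 to −0.07) and 9 for DTYMK (0.16 to 0.33).

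**Figure D2:**
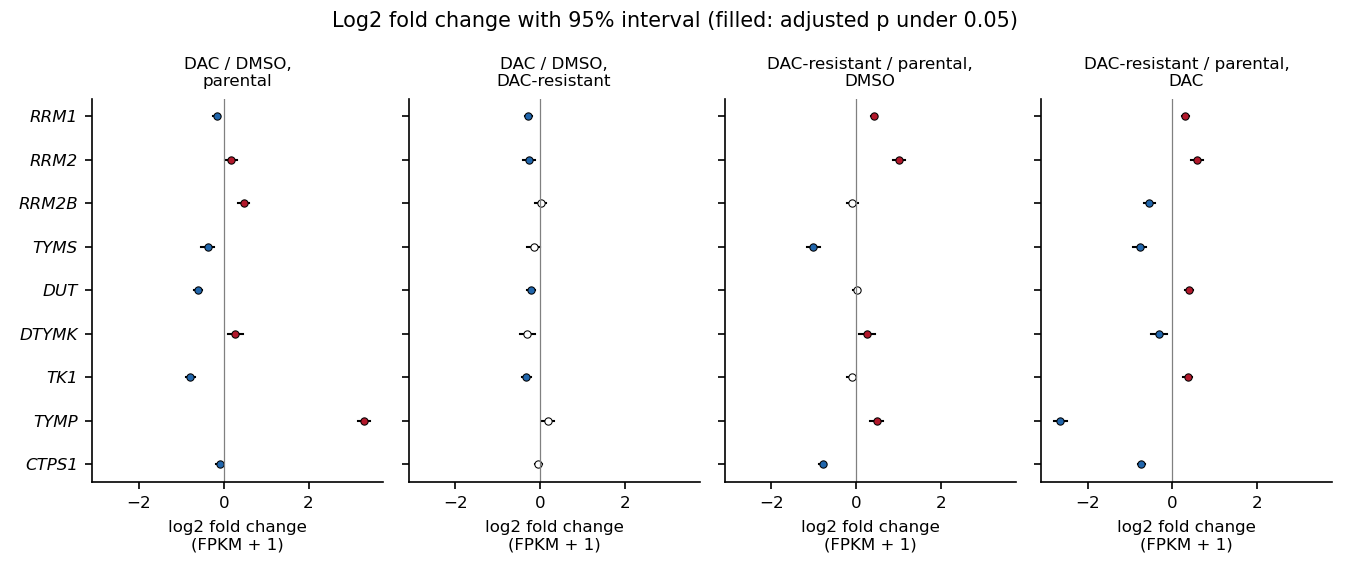
Log2 fold change of FPKM + 1 for the 9 enzymes in 4 comparisons of 2 against 2 libraries, with 95% intervals from the limma fit. Filled points passed an adjusted p under 0.05 (red higher, blue lower) and open points did not. TYMP in parental cells under DAC, at 3.31, and in DAC-resistant against parental cells under DAC, at −2.64, lay farthest from 0.

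In DAC-resistant cells fewer of these enzymes passed under the same exposure. RRM1, RRM2, DUT and TK1 fell and none rose, so that 4 of 9 passed, where 11.2% of all genes tested passed (5.88% higher and 5.35% lower). Among genes at a mean of at least 5 FPKM, as all 9 enzymes were, 27.2% passed when fitted alone, with 5 of the 9 enzymes, DTYMK being the addition. None of the 9 was called by the 2-fold rule, which called 0.235% of all genes (0.114% higher and 0.121% lower). RRM1 was at 44.9 and 44.6 FPKM under DMSO and 36.1 and 37.4 FPKM under DAC, a log2 fold change of −0.28 (SE 0.0319, adjusted p = 0.00497). TK1 was at 59.7 and 59.4 FPKM under DMSO and 48.1 and 46.4 FPKM under DAC (log2 fold change −0.33, SE 0.0437, adjusted p = 0.00808). In both genes the DAC libraries lay below the DMSO libraries.

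DUT was at 36.7 and 35.0 FPKM under DMSO and 30.6 and 31.0 FPKM under DAC (log2 fold change −0.21, SE 0.0390, adjusted p = 0.0204). RRM2 was at 14.7 and 14.9 FPKM under DMSO and 12.8 and 11.6 FPKM under DAC (log2 fold change −0.26, SE 0.0602, adjusted p = 0.0429). TYMP, which had risen 12.1-fold in parental cells, was at 6.31 and 5.94 FPKM under DMSO and 7.56 and 6.66 FPKM under DAC, and its log2 fold change of 0.18 (95% interval 0.04 to 0.33) did not pass (adjusted p = 0.107). DTYMK was at 16.7 and 14.4 FPKM under DMSO and 12.04 and 12.8 FPKM under DAC, with a log2 fold change of −0.30 that did not pass (adjusted p = 0.0531). It passed as lower in 5 alternatives, among them a fit to recovered reads (−0.32) and the fit without DAC-resistant DMSO replicate 2 (−0.40). RRM2B, TYMS and CTPS1 had log2 fold changes of 0.02, −0.15 and −0.04, with 95% intervals of −0.11 to 0.15, −0.30 to 0.01 and −0.12 to 0.04, and did not pass. The RRM1 call held whichever single library was left out. The RRM2 call was lost without any of the 8 libraries in turn (−0.32 to −0.19), the DUT call without any of the 4 DAC-resistant libraries (−0.25 to −0.18 over all 8), and the TK1 call without DAC-resistant DMSO replicate 1 or DAC-resistant DAC replicate 2 (−0.35 to −0.30 over all 8).

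The difference between these responses was tested directly as an interaction, DAC-resistant minus parental, and 6 of 9 enzymes passed (2 higher and 4 lower), where 49.3% of all genes did (20.9% higher and 28.4% lower). TYMP had the largest difference, −3.12 on the log2 scale (SE 0.0854, adjusted p = 1.47e-06), and alone met the 2-fold rule, which called 10.6% of all genes (3.46% higher and 7.16% lower). DTYMK, RRM2B and RRM2 also had lower responses in DAC-resistant cells, with differences of −0.57 (SE 0.106, adjusted p = 0.00467), −0.45 (SE 0.0764, adjusted p = 0.00320) and −0.43 (SE 0.0851, adjusted p = 0.00610). TK1 and DUT, which fell in both lines, fell less in DAC-resistant cells, with differences of 0.46 (SE 0.0619, adjusted p = 0.00113) and 0.39 (SE 0.0551, adjusted p = 0.00139). For TYMS, RRM1 and CTPS1 the differences of 0.23 (95% interval 0.01 to 0.45), −0.11 (−0.22 to 0.00) and 0.05 (−0.06 to 0.17) did not pass. The TYMS difference passed in 6 of 19 alternatives (0.15 to 0.34 over all 19), among them the fit without parental DAC replicate 1, at 0.32, and that of CTPS1 in 2 (0.03 to 0.16).

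Without drug, the lines themselves differed. Set against parental cells in DMSO, DAC-resistant cells had 4 enzymes higher (RRM1, RRM2, DTYMK, TYMP) and 2 lower (TYMS, CTPS1), so that 6 of 9 passed, where 57.5% of all genes tested did (31.3% higher and 26.2% lower). These libraries of DMSO-treated parental cells also serve as the reference of the DAC comparison in parental cells. Under the 2-fold rule RRM2 (higher) and TYMS (lower) were called, where 8.73% of all genes were (4.45% higher and 4.28% lower). Both lay close to the cut. With single libraries left out, their log2 fold changes were 0.99 to 1.04 and −1.06 to −0.95, on both sides of it.

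RRM2, the S-phase small subunit of the reductase, was at 6.92 and 6.65 FPKM in parental and 14.7 and 14.9 FPKM in DAC-resistant cells, 2.18-fold higher (log2 fold change 1.02, SE 0.0602, adjusted p = 2.14e-05). RRM1 was at 32.7 and 33.9 FPKM in parental and 44.9 and 44.6 FPKM in DAC-resistant cells (log2 fold change 0.42, SE 0.0319, adjusted p = 6.51e-05). The other small subunit RRM2B, at 11.7 and 11.9 against 10.3 and 11.6 FPKM, had a log2 fold change of −0.10 (95% interval −0.23 to 0.03, adjusted p = 0.168). It passed as lower, at −0.18, −0.19 and −0.17, under quantile normalization, under upper-quartile scaling and without DAC-resistant DMSO replicate 2. TYMS, which makes dTMP, was at 35.4 and 35.5 FPKM in parental and 17.8 and 16.5 FPKM in DAC-resistant cells, a change of −51.6% (log2 fold change −1.01, SE 0.0652, adjusted p = 3.15e-05). CTPS1 was at 25.6 and 26.4 FPKM in parental and 14.6 and 14.7 FPKM in DAC-resistant cells, a change of −43.7% (log2 fold change −0.79, SE 0.0335, adjusted p = 5.66e-06). In RRM1, RRM2, TYMS and CTPS1 no library of a line reached the range of the other line, under DMSO or under DAC.

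TYMP was 1.49-fold higher in DAC-resistant cells under DMSO (log2 fold change 0.48, SE 0.0604, adjusted p = 0.000605), at 6.31 and 5.94 against 4.04 and 4.16 FPKM. DTYMK had a log2 fold change of 0.25 (SE 0.0750, adjusted p = 0.0251), a call that was lost without parental DMSO replicate 1 or DAC-resistant DMSO replicate 1 (0.15 to 0.35 over all 8 libraries left out) and that changed in 8 of 20 alternatives, among them quantile normalization at 0.16. DUT, at 35.3 and 36.0 against 36.7 and 35.0 FPKM, had overlapping libraries and a log2 fold change of 0.01 (95% interval −0.09 to 0.10), which turned to −0.11 under quantile normalization. TK1, at 63.2 and 64.9 against 59.7 and 59.4 FPKM, had a log2 fold change of −0.10 that did not pass (adjusted p = 0.0859), and passed in 6 of 20 alternatives, over which it ranged from −0.21 to −0.03.

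Under DAC all 9 enzymes differed between the lines, 4 higher and 5 lower in DAC-resistant cells, where 67.0% of all genes passed (32.0% higher and 35.1% lower). RRM2, DUT, TK1 and RRM1 were higher, with log2 fold changes of 0.59, 0.40, 0.36 and 0.31. TYMP was lower, with a log2 fold change of −2.64 (SE 0.0604, adjusted p = 2.50e-07), a change of −85.6% and the only member called by the 2-fold rule, which called 14.5% of all genes (5.29% higher and 9.17% lower). TYMS, CTPS1, RRM2B and DTYMK were lower, with log2 fold changes of −0.77, −0.73, −0.55 and −0.32, and adjusted p over these 9 enzymes reached at most 0.00857. The DTYMK call was lost without parental DAC replicate 2 or DAC-resistant DAC replicate 1 (−0.36 to −0.28 over all 8 libraries left out) and, at −0.21, with values rescaled to TPM.

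The make-up of ribonucleotide reductase transcripts was read as FPKM ratios within a library. The ratio of RRM2 to RRM1 was 0.204 ± 0.0110 in parental DMSO, 0.264 ± 0.0218 in parental DAC, 0.330 ± 0.00380 in DAC-resistant DMSO and 0.332 ± 0.0310 in DAC-resistant DAC cells (n = 2 each). Both DAC-resistant groups lay above both parental groups, and overlapped each other. The ratio of RRM2B to RRM2 was 1.73 ± 0.0707, 2.14 ± 0.0818, 0.741 ± 0.0527 and 0.910 ± 0.0467 in the same order, so that RRM2B exceeded RRM2 per length in parental and not in DAC-resistant cells. That reading depends on the length used: per kilobase of the MANE Select transcripts, a divisor chosen after the values were seen, the ratio was 0.697, 0.862, 0.298 and 0.366, with RRM2 the higher in all 4 groups. Ratios of 2 groups of 2 libraries cannot reach an exact permutation p below 0.333, and no test was made.

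Thymidine-handling ratios separated the groups further. TYMP to TYMS was 0.116 ± 0.00219 in parental DMSO, 1.84 ± 0.140 in parental DAC, 0.357 ± 0.00447 in DAC-resistant DMSO and 0.464 ± 0.0636 in DAC-resistant DAC cells. TYMP transcripts thus exceeded TYMS transcripts per length in the parental DAC libraries and in no other group. TK1 to TYMS, salvage over synthesis, was 1.81 ± 0.0297, 1.36 ± 0.0295, 3.48 ± 0.182 and 3.08 ± 0.224, and DUT to TYMS was 1.01 ± 0.0103, 0.857 ± 0.109, 2.09 ± 0.0434 and 2.00 ± 0.0773, in the same order. Both ratios were higher in every DAC-resistant than in every parental library, while TYMS was the denominator with the lower level there.

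**Figure D3:**
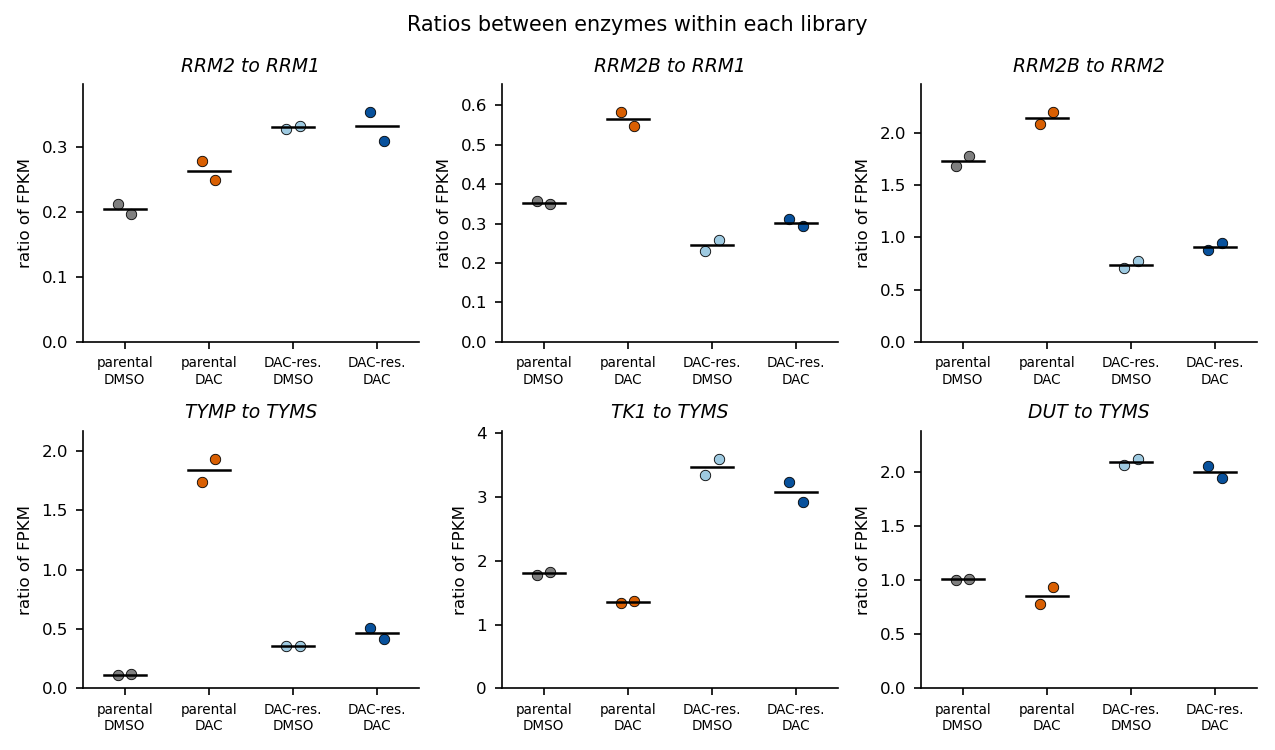
Ratios of FPKM between pairs of enzymes within each of 8 libraries (linear axes from 0). Points are libraries and bars are means of 2. RRM2 to RRM1 was higher and RRM2B to RRM2 lower in DAC-resistant than in parental cells, and TYMP to TYMS was 1.74 to 1.94 in parental DAC libraries.

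Genes that share exon bases with an enzyme were followed because the counting was not stated to use strand. TYMP at chr22:50525752-50530032 on the minus strand shares 323 exon bases, 8.97% of its own, with its same-strand neighbour ODF3B. ODF3B rose from 1.39 and 1.55 to 16.5 and 17.8 FPKM in parental cells under DAC (log2 fold change 2.87, SE 0.0680, adjusted p = 3.94e-07), and in DAC-resistant cells was at 1.71 and 1.75 under DMSO and 1.54 and 1.66 FPKM under DAC. SCO2, which shares 361 bases with TYMP, stayed at or below 1.13 FPKM in all libraries. Reads in the shared bases cannot be assigned between TYMP and ODF3B here, and their part in the TYMP value was not tested.

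TYMS at chr18:657653-673578 on the plus strand shares 967 exon bases, 39.9% of its own, with the opposite-strand gene ENOSF1 and 193 with TYMSOS. ENOSF1 was at 4.44 and 4.35 FPKM in parental and 2.06 and 1.73 FPKM in DAC-resistant cells under DMSO (log2 fold change −0.90, SE 0.0906, adjusted p = 0.000223), the direction of TYMS. It held 1603 and 1503 reads in the parental DMSO libraries, where TYMS held 2718 and 2606, and the part of the shared bases in the TYMS value was not tested. TYMSOS was at most 1.37 FPKM. DUT-AS1, on the strand opposite DUT, shares 533 exon bases, 14.5% of those of DUT, and was at most 0.490 FPKM (16 to 70 reads), and RRM1-AS1 shares 63 bases with RRM1 and held at most 7 reads. The named pseudogene copies of RRM2, TYMS and DUT were at or below 0.726 FPKM apart from DUTP2, which reached 2.04 FPKM, and DUTP6, at 0.341 to 0.999 FPKM in parental and 1.77 to 2.88 FPKM in DAC-resistant libraries, and how reads were split between DUT and these copies is uncertain. The other enzymes lie at chr8:102204502-102238961 (RRM2B, minus strand), chr11:4094707-4138932 (RRM1, plus strand), chr2:10120698-10211725 (RRM2, plus), chr15:48331011-48343373 (DUT, plus), chr2:241675747-241686944 (DTYMK, minus), chr17:78174091-78187233 (TK1, minus) and chr1:40979300-41012565 (CTPS1, plus) in GRCh38 with GENCODE v44.

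**Figure D4:**
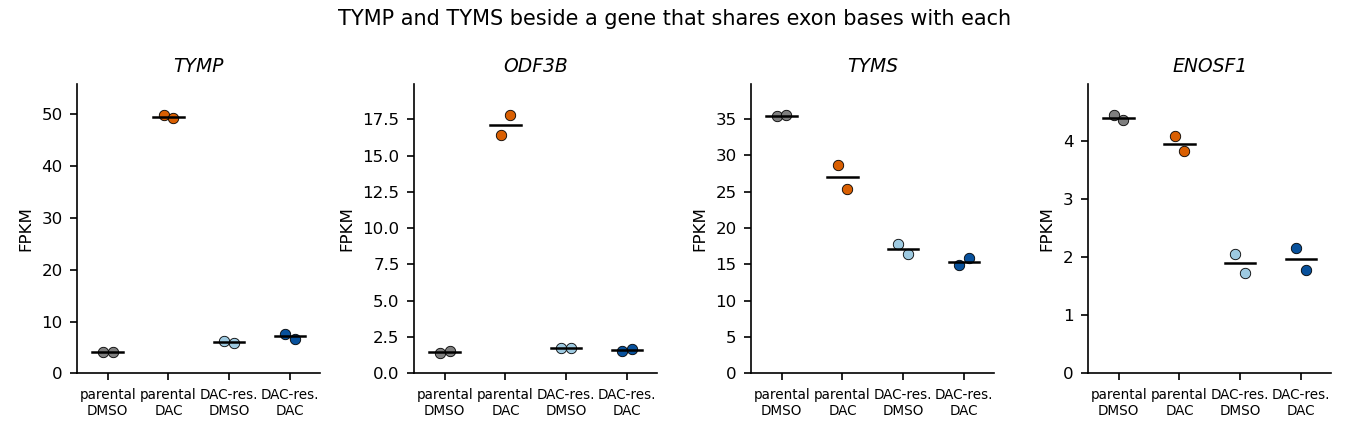
FPKM (linear axes from 0) of TYMP and TYMS and of a gene sharing exon bases with each, in 8 libraries. Points are libraries and bars are means of 2. ODF3B was highest, at 16.5 and 17.8 FPKM, in the same parental DAC libraries as TYMP, and ENOSF1 was lower in DAC-resistant cells, as was TYMS.

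Other enzymes of nucleotide metabolism formed 5 lists with 62 genes, all tested. Under DAC in parental cells 12 of the 62 were higher and 25 lower (median log2 fold change −0.08), where 33.6% of all genes were higher and 24.1% lower (median 0.06). The same shares stand behind the counts of the single lists. In the de novo pyrimidine list 4 of 6 fell and none rose, with log2 fold changes of −0.66 for CTPS2, the other CTP synthase (adjusted p = 0.000650), −0.51 for the UMP/CMP kinase CMPK1, −0.38 for the dCMP deaminase DCTD and −0.19 for CAD, which starts the pathway. In the folate list, which supplies the TYMS cofactor, 5 of 8 fell and 1 rose. The mitochondrial serine hydroxymethyltransferase SHMT2 went from 98.6 and 102.3 to 36.5 and 32.0 FPKM (log2 fold change −1.53, adjusted p = 3.34e-06). Of 18 kinases, 4 rose and 8 fell. CMPK2, a mitochondrial UMP/CMP kinase induced by interferon, rose from 2.91 and 2.97 to 42.0 and 42.0 FPKM (3.45), while the mitochondrial thymidine kinase TK2 fell, with a log2 fold change of −0.50.

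Of 17 genes of nucleotide breakdown and pool sanitation, 6 rose and 3 fell in parental cells under DAC. Uridine phosphorylase UPP1, which stayed below 2 FPKM, rose by 0.86 on the log2 scale and the dNTPase SAMHD1 by 0.25. With single libraries left out, 4 to 8 of these 17 rose and 1 or 2 fell, and 5 to 9 of the 18 kinases fell, 5 without parental DAC replicate 1. Of 13 de novo purine genes 1 rose and 5 fell, among them the phosphoribosyl pyrophosphate synthetase PRPS2 (log2 fold change −0.60). DCK, which activates DAC, was at 27.5 and 26.5 FPKM under DMSO and 23.0 and 24.5 FPKM under DAC, a log2 fold change of −0.18 that passed (adjusted p = 0.0137), and CDA, which inactivates it, did not pass (0.33, adjusted p = 0.142). In DAC-resistant cells 5 of the 62 genes were higher under DAC and 10 lower (median −0.01), where 5.88% of all genes were higher and 5.35% lower (median 0.01). These 15 calls became 9 without either parental DMSO library and 4 or 5 when any single DAC-resistant library was left out. Among those lower were the nucleoside phosphorylase PNP (log2 fold change −0.49) and the purine enzyme PFAS (−0.53). MTHFD2 of the mitochondrial folate cycle rose (0.29), where it had fallen in parental cells (−0.85).

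In DMSO, DAC-resistant against parental cells had 19 of the 62 higher and 17 lower (median 0.04), close to the shares of all genes, 31.3% higher and 26.2% lower (median 0.02). CMPK2 was higher by 1.35 on the log2 scale, PNP by 1.22, PFAS by 0.73 and the uridine-cytidine kinase UCK2 by 0.72. CDA was lower (log2 fold change −1.21, adjusted p = 0.00103), at 2.35 and 2.17 FPKM in parental and 0.270 and 0.568 FPKM in DAC-resistant cells, all low levels. The mitochondrial nucleotidase NT5M and TK2 were lower as well, with log2 fold changes of −1.02 and −0.51. DCK was lower (log2 fold change −0.19, adjusted p = 0.0107), at 27.5 and 26.5 FPKM in parental and 23.2 and 23.9 FPKM in DAC-resistant cells. SAMHD1 did not pass (0.00, adjusted p = 0.946), at 36.2 and 36.7 against 36.9 and 36.1 FPKM. Under DAC, 26 of the 62 were higher in DAC-resistant cells and 16 lower (median 0.12), where 32.0% of all genes were higher and 35.1% lower (median −0.03). The interaction passed for 16 in each direction, where 20.9% of all genes were higher and 28.4% lower.

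Cell-cycle and interferon lists moved with the same groups and are given beside the enzymes. The shares of all genes behind their counts were 33.6% higher and 24.1% lower when parental cells received DAC, 5.88% and 5.35% when DAC-resistant cells did, and 31.3% and 26.2% between the lines in DMSO, with medians of 0.06, 0.01 and 0.02. Of 26 S phase replication genes, 15 fell and 2 rose under DAC in parental cells (median −0.20), and 19 fell and none rose in DAC-resistant cells (median −0.31). The count of 2 moved in both directions with single libraries left out. TK1, DUT and RRM1 fell in both lines as well. RRM2, RRM2B, DTYMK and TYMP rose in parental cells, and of these RRM2 fell in DAC-resistant cells. The 19 became 13 without either DAC-resistant DMSO library, 15 without DAC-resistant DAC replicate 1 and 11 without DAC-resistant DAC replicate 2. PCNA, the replication clamp, fell in both lines, with log2 fold changes of −0.29 in parental and −0.32 in DAC-resistant cells. In DMSO 14 S phase genes were higher and 5 lower in DAC-resistant cells (median 0.11), with PCNA higher by 0.49 and GINS1 by 0.97, beside the higher RRM2 and RRM1 and the lower TYMS and CTPS1. The count of higher S phase genes fell whichever single library was left out, and that of lower ones fell when some were. Of 20 mitosis genes, 5 rose and 12 fell under DAC in parental cells (median −0.26), and 4 rose and 2 fell in DAC-resistant cells (0.03). Leaving out any single library lowered the count of 4, and leaving out any single DAC-resistant library also lowered the count of 2. In DMSO 14 were higher and 2 lower in DAC-resistant cells (0.19). That count of 14 fell without any library but DAC-resistant DMSO replicate 2.

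All 10 interferon-stimulated genes rose in parental cells under DAC (median 4.82), beside TYMP and CMPK2. In DMSO 9 of the 10 were higher in DAC-resistant than in parental cells (median 2.504), and 9 of 10 fell under DAC in DAC-resistant cells (median −0.52, with 6 to 9 falling when single libraries were left out), where TYMP did not pass and CMPK2 fell (−0.30). Of 16 listed p53 target genes, 9 rose and 3 fell in parental cells under DAC (median 0.25), where 33.6% of all genes were higher and 24.1% lower. There mean CDKN1A was 18.3 FPKM under DMSO and 35.5 FPKM under DAC, and mean CCNG1 was 188 and 65.7 FPKM. In DAC-resistant cells 1 rose and none fell under DAC, where 5.88% of all genes were higher and 5.35% lower. In DMSO 3 were higher and 9 lower in DAC-resistant than in parental cells (median −0.28), where 31.3% of all genes were higher and 26.2% lower. Each of the counts 9, 3 and 1 moved when some single libraries were left out. The part of these lists in the results for the enzymes was not tested.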

How the data were processed

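mRNA libraries (KAPA mRNA HyperPrep) of parental and DAC-resistant THP-1 cells under DMSO or 1 µM DAC for 6 days (2 replicates per group, 8 libraries) were processed by the authors with FastQC, cutadapt 1.9.1, HISAT2 2.1.0 against hg38, SAMtools 1.6 and HTSeq 0.13.5, per the labels and the study's methods. The deposited values are FPKM multiplied by 1000 and were divided by 1000. Whether counting used strand is not given in the sources used here. The table has 61928 rows, of which 1264 are repeat families and were not used. Steps between FPKM values gave whole reads (within 0.02) for 87.1% of gene values above 0 with GENCODE v44 exon lengths, and gave the read numbers. A count-based fit on these reads was one of the alternatives. It called 2950 genes for DAC in DAC-resistant cells, where the FPKM fit called 1673.

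limma 3.58.1 (R 4.3.3) was fitted to log2(FPKM + 1) with 4 group means and a variance trend, over the 14899 genes reaching 1 FPKM in 2 or more libraries. The pseudocount understates changes of low genes. p-values are two-sided, adjusted by Benjamini-Hochberg over all these genes. The script was tested on simulated data. The members and lists were chosen with earlier results of these data known. Named genes were all 9 members, the largest passing rise and fall of each list and comparison, pathway genes chosen by name (DCK, CTPS2, TK2, DCTD, SAMHD1, CDA, CAD, PCNA), overlapping genes and copies, and the 3 genes most like each member. Some items that the rule names are not reported here. CMPK1, UCK2, CDKN1A, CD4, CD14, CD33, LYZ and CEBPA were named beyond this rule, after their values were seen. Same-numbered replicates did not deviate together in a correlation over all genes tested. Sequences came from RefSeq GRCh38.p14, with 8 of 9 members matched. Alternatives were other normalizations, filters, pseudocounts, fits and each library left out.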

Additional observations from a re-analysis of the deposited data

Results flagged for a closer look

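The DAC effect differed between DAC-resistant and parental cells by the limma interaction test for 6 of 9 enzymes, where 49.3% of all genes passed. Among genes at a mean of at least 5 FPKM, 65.4% passed when fitted alone, with 7 of the 9 enzymes. The difference, DAC-resistant minus parental on the log2 scale, was −3.12 for TYMP, −0.57 for DTYMK, −0.45 for RRM2B, −0.43 for RRM2, 0.39 for DUT and 0.46 for TK1. Each remained past an adjusted p of 0.05 when any single library was left out.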

How the results depend on the processing

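Over all alternatives, 778 of 891 values of the enzymes stayed on their side of the threshold with no called value changing sign, 90 no longer passed, 22 newly passed and 1 reversed. The sign differed in 6 values in all, 5 for DUT between the lines in DMSO and 1 for RRM2B under DAC in DAC-resistant cells, and 1 of the 6 passed. The value that passed was DUT between the lines in DMSO, 0.01 and, under quantile normalization, −0.11 (adjusted p = 0.0499). For DAC in DAC-resistant cells, 4 enzymes passed, but 2 without a filter on low values, 2 with only the libraries compared, 2 with variances not moderated, 0 by the 2-fold rule and 1 to 3 with single libraries left out. The 15 pathway genes became 7, 4, 8 and 0 under the same settings, 9 with a replicate block and 4 to 13 with single libraries left out. By the 2-fold rule the enzymes passing were 1 of 9 for DAC in parental cells, 2 of 6 between the lines in DMSO, 1 of 9 under DAC and 1 of 6 for the interaction, and pathway genes 3 of 37, 4 of 36, 5 of 42 and 4 of 32. The genes passing for DAC in DAC-resistant cells, 1673, were 831 without a filter, 434 with only the libraries compared, 845 unmoderated, 2950 by voom and 440 to 616 without a library of these cells. A filter on a mean of 5 FPKM tested 7239 genes and passed 5181, 5161, 5698 and 4732 in the comparisons other than that, and 1970 in it. The shares passing were then 71.6%, 71.3%, 78.7% and 65.4%, against 57.7%, 57.5%, 67.0% and 49.3%, and 27.2% against 11.2% for DAC in DAC-resistant cells. Among genes passing for DAC in parental cells, 58.2% were higher, and 45.1% under quantile normalization, 46.4% under upper-quartile scaling and 45.0% centred on the median gene, which was chosen after seeing the data. The same share was 52.4% for DAC in DAC-resistant cells, and 65.9% with values rescaled to TPM. For the interaction it was 42.4%, and 53.8%, 52.9% and 54.6% under the 3 scalings named before. Between the lines in DMSO it was 54.4%, and 44.7% (upper-quartile scaling) to 61.1% (TPM) over these scalings. Between the lines under DAC it was 47.7%, and 48.4% (upper-quartile scaling) to 56.5% (TPM).

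The replicate block left 44 of 45 enzyme results on their side of the threshold, and the CTPS1 call in parental cells was lost. Same-numbered libraries correlated by −0.022 to 0.020 in their deviations over 6 pairs of groups. Each correlation is taken over all genes tested, so it cannot show whether same-numbered libraries share an effect on a subset of genes.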

Other observations

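Across all 8 libraries, the genes with a pattern most like that of each enzyme were found by Pearson correlation of log2(FPKM + 1), as a description over libraries that share 4 groups. For RRM1 they were the spindle checkpoint gene MAD2L1 (r = 0.997), PARP2 and TRAPPC9, for RRM2 OLFML2A (0.995), SNHG3 and TOR1AIP2, and for RRM2B ITGA2B (0.993), RNF19B and ARMH3. TYMS was followed by FAM111A (0.996), LRFN3 and ATP6V0A1, DUT by TUBA1A (0.995), FADS1 and ACAD10, and DTYMK, the least matched, by SSR4 (0.962), CCDC134 and DNAJC8. TK1 was nearest to PM20D2 (0.990), PRKCSH and PKMYT1, CTPS1 to ZNF579 (0.999), GTPBP8 and GNAS, and TYMP to a gene without a symbol (ENSG00000230628, 0.999), CYTIP and ZCCHC2. Among the enzymes themselves, TYMS and CTPS1 ran together (0.965), as did DUT and TK1 (0.956) and RRM2B and TYMP (0.928), while DUT and TYMP ran opposite (−0.960), as did RRM2 and CTPS1 (−0.959).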
